A study of Homo sapiens with 6 samples.

Results

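The Hedgehog pathway genes SHH, PTCH1, SMO, GLI1, GLI2, GLI3 and HHIP and the HHIP-like genes HHIPL1 and HHIPL2 were followed in KNS42 cells after depletion of the RNA-binding protein MSI1. These 9 genes were taken by symbol from a table of 58174 genes. The group was chosen by a measured value, the roughly 5-fold higher HHIPL2 level upon MSI1 knockdown. The other 8 genes were listed for their role, with earlier results of these data known. KNS42 cells, a long-established line from a glioblastoma of childhood, were grown in DMEM with fetal bovine serum. One group received an siRNA pool against MSI1 (siMSI1, n = 3 libraries) and the other a control siRNA (siC, n = 3 libraries), with RNA taken 72 h after transfection in both. The labels do not say whether the libraries of a group came from separate cultures, so p-values measure only the spread between these libraries, which may be technical.

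In the canonical pathway a Hedgehog ligand such as SHH binds PTCH1, a membrane receptor that otherwise holds the transducer SMO inactive. SMO signals at the primary cilium to the GLI transcription factors, of which GLI1 is mainly an activator and a target of the pathway, GLI2 mostly an activator, and GLI3 mostly a repressor when processed. PTCH1 and HHIP are themselves pathway targets and restrain signalling, HHIP by binding the ligands at the cell surface. HHIPL1 and HHIPL2 resemble HHIP in sequence, and the function of HHIPL2 is poorly defined. In the developing nervous system the pathway patterns the ventral neural tube and drives the growth of neural progenitors.

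Upon MSI1 knockdown, HHIPL2 was 5.07-fold higher, from 0.898 ± 0.0497 to 4.56 ± 0.0741 FPKM (SD, n = 3). HHIP rose 2.92-fold, from 0.435 ± 0.0492 to 1.27 ± 0.0395 FPKM, while the receptor gene PTCH1 fell to 69.9% of its control level. SMO and HHIPL1 were lower in every siMSI1 library, with adjusted p-values just above the threshold of 0.01. The 3 GLI genes did not pass it, and SHH had no reads. HHIP and PTCH1 passed it with all libraries. HHIP had a siC mean under 0.5 FPKM, so it was tested only through its siMSI1 level. Leaving out any 1 of the 6 libraries took HHIP above the threshold. PTCH1 did not pass when siC replicate 1, siC replicate 2 or siMSI1 replicate 2 was left out. FPKM, a read count divided by gene length and by a scaled library size, is the unit of every level given here. That size was 0.977 (siMSI1 replicate 3) to 1.025 (siMSI1 replicate 1) times the reads on genes. Adjusted p-values come from limma on log2(FPKM + 0.1), with Benjamini-Hochberg adjustment over the 15069 genes with a mean of at least 0.5 FPKM.

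Libraries held 13087025 to 18024080 reads on genes. A count of 3 reads on a gene of 2 kb equalled 0.0829 to 0.114 FPKM, and this floor covers counting error only. MSI1 itself fell from a mean of 64.2 FPKM in siC to 11.8 FPKM in siMSI1. Of the neural and glioma markers NES, SOX2, VIM, GFAP, OLIG2 and CD44, OLIG2 had no reads in any library. Their summed level was 1450 to 1517 FPKM in siC and 1210 to 1314 FPKM in siMSI1. Markers of other cell types (PTPRC, PECAM1, EPCAM, ALB, COL1A1 and RBFOX3) summed to 2.17 to 4.42 FPKM in siC and 2.22 to 3.13 FPKM in siMSI1, and 3 of these 6 never exceeded 3 reads. COL1A1 made up most of that sum (means of 3.12 FPKM in siC and 2.40 FPKM in siMSI1, not called). Most of the neural and glioma sum was VIM (means of 1035 FPKM in siC and 865 FPKM in siMSI1, not called). In the same list, the astrocyte filament gene GFAP rose from 1.63 to 4.61 FPKM (limma adjusted p = 0.000905), and CD44 fell from 84.8 to 61.9 FPKM (limma adjusted p = 0.00303). The part of these marker differences in the results was not tested.

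Promoter windows of HHIPL2, HHIP and PTCH1 are shown, HHIPL2 as the gene that chose the group and HHIP and PTCH1 as the called genes and textbook GLI targets. The windows are from RefSeq on GRCh38.p14, run 5′ to 3′ on the strand of the gene, and cover 250 bases before and 50 bases after an annotated start. Capitals mark CpG dinucleotides in HHIPL2 (chr1:222548055-222548354, minus strand) and HHIP (chr4:144645906-144646205, plus strand), and the GLI motif TGGGTGGTC in PTCH1 (chr9:95509217-95509516, minus strand).
HHIPL2: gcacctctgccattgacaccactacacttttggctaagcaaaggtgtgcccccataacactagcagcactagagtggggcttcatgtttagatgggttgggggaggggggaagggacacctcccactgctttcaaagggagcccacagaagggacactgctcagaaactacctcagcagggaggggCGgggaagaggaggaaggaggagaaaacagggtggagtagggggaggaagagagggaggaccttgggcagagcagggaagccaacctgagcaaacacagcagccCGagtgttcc
HHIP: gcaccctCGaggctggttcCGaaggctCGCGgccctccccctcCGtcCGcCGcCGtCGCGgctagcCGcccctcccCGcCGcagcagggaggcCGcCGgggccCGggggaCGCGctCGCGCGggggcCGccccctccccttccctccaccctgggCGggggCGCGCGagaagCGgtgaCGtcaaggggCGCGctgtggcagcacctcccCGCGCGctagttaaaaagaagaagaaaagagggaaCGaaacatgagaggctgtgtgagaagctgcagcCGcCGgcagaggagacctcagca
PTCH1: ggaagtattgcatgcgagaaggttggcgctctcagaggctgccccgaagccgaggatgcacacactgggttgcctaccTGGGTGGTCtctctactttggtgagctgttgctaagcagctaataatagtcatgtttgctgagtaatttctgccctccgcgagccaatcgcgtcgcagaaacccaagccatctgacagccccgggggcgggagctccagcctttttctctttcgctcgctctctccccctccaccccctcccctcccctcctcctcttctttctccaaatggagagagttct

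The HHIPL2 window held 2 CpG dinucleotides at 57.7% GC, and 11.0% of the 35116 RefSeq promoter windows held fewer. The HHIP window held 36 CpG at 72.7% GC, more than 87.3% of windows, against a median of 14 CpG and 58.7% GC over all windows. The GLI motif, searched as TGGGTGGTC and its reverse complement GACCACCCA on both strands, was in 0.236% of all windows. Of 14 windows belonging to 7 of the 9 genes, it was found only in the PTCH1 window shown, 1 of 5 PTCH1 windows, starting 172 bases before the annotated start. GLI1 and GLI3 had no entry. A match of letters is a description and not a binding site.

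The ligand gene SHH (ENSG00000164690, GRCh38, as for all positions here, chr7:155799980-155812463, minus strand, 3 exons) had 0 reads in all 6 libraries. For its length of 5038 bases, 3 reads would equal 0.0329 to 0.0454 FPKM, so a level below this was not detectable at this depth. The related ligand genes IHH and DHH reached at most 5 and 13 reads in a library. None of these ligand genes passed the filter on low values.

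PTCH1, the receptor gene (ENSG00000185920, chr9:95442980-95517057, minus strand, 24 exons), was measured at 15.4, 14.3 and 13.4 FPKM in the siC libraries and at 10.8, 9.55 and 9.81 FPKM in siMSI1. All 3 siMSI1 libraries lay below all 3 siC libraries. In bulk RNA, fewer cells that express a gene and less RNA per cell cannot be told apart. The means were 14.4 ± 1.0 and 10.0 ± 0.636 FPKM, from 2077 to 4278 reads per library. PTCH1 fell by 0.51 on the log2 scale (SE 0.08, 95% interval -0.70 to -0.32, limma adjusted p = 0.00414). The call was lost without siC replicate 1 (adjusted p = 0.0246), without siC replicate 2 (0.0154) and without siMSI1 replicate 2 (0.0165), with the direction kept. It was also lost with no filter on low genes (0.0143) and with plain variance moderation (0.0150).

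SMO, the seven-pass membrane protein that PTCH1 restrains (ENSG00000128602, chr7:129188633-129213545, plus strand, 12 exons), was at 6.61, 6.40 and 7.50 FPKM in the siC libraries and at 3.48, 2.76 and 4.81 FPKM in siMSI1. The groups did not overlap, but the siMSI1 libraries differed widely among themselves and replicate 3 was the highest. The siMSI1 mean of 3.68 ± 1.04 FPKM was 53.9% of the siC mean of 6.84 ± 0.583 FPKM. The log2 fold change was -0.91 (SE 0.19, 95% interval -1.34 to -0.48) and missed the threshold (limma adjusted p = 0.0112). Without siMSI1 replicate 3 it was -1.11 and passed (adjusted p = 0.00169).
It also passed among genes with a mean of at least 1 FPKM (0.00805) and in limma voom on the reads recovered from the FPKM values (0.000211).
The PTCH1 to SMO ratio, formed after the values were seen and given without a test, was 2.33, 2.23 and 1.79 in siC and 3.09, 3.46 and 2.04 in siMSI1, with overlapping groups.

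GLI1, the activator that serves as the usual readout of the pathway (ENSG00000111087, chr12:57459785-57472268, plus strand, 12 exons), was low, at 0.683, 0.526 and 0.694 FPKM in the siC libraries and 0.968, 0.944 and 1.04 FPKM in siMSI1. These values rest on 40 to 63 reads per library. Each siMSI1 library lay above each siC library, with means of 0.634 ± 0.0941 and 0.985 ± 0.0521 FPKM. The log2 fold change of 0.57 (SE 0.21, 95% interval 0.076 to 1.07) did not pass the test (limma adjusted p = 0.0881), nor did it in any of 14 alternative analyses (0.0224 to 0.222).

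GLI2 (ENSG00000074047, chr2:120735623-120992653, plus strand, 14 exons), the most abundant of the GLI genes, was at 13.7, 13.1 and 13.3 FPKM in the siC libraries and at 14.4, 14.0 and 15.5 FPKM in siMSI1. GLI3 (ENSG00000106571, chr7:41960949-42264100, minus strand, 15 exons) was at 8.92, 8.70 and 8.39 FPKM in the siC libraries and at 7.45, 7.40 and 8.20 FPKM in siMSI1. Neither gene's groups overlapped, GLI2 being slightly higher and GLI3 slightly lower in siMSI1. The log2 fold change was 0.13 for GLI2 (SE 0.07, 95% interval -0.027 to 0.29, limma adjusted p = 0.202). For GLI3 it was -0.17 (SE 0.08, 95% interval -0.35 to 0.000686, limma adjusted p = 0.132). Neither gene passed in any of 15 alternative analyses.

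Summed over the 3 GLI genes, the level was 22.7 ± 0.535 FPKM in siC and 23.3 ± 1.28 FPKM in siMSI1, and the group ranges of 22.4 to 23.3 and 22.3 to 24.8 FPKM overlapped. The GLI2 to GLI3 ratio, of transcripts and not of activator and repressor proteins, was 1.53, 1.51 and 1.58 in siC and 1.93, 1.89 and 1.89 in siMSI1. GLI1 made up 2.80% ± 0.394 of the summed GLI level in siC and 4.23% ± 0.0147 in siMSI1. These ratios were formed after the values were seen and carry no test.

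HHIP, the ligand-binding antagonist (ENSG00000164161, chr4:144646156-144745271, plus strand, 13 exons), was at 0.387, 0.485 and 0.432 FPKM in the siC libraries and at 1.23, 1.26 and 1.31 FPKM in siMSI1. The groups lay far apart, with 70 to 106 reads in siC and 200 to 227 reads in siMSI1. HHIP rose by 1.36 on the log2(FPKM + 0.1) scale (SE 0.21, 95% interval 0.87 to 1.85, limma adjusted p = 0.00379), a scale that understates the change of low genes. Its siC mean was below the filter of 0.5 FPKM, so it was tested only through its siMSI1 level, and with no filter it still passed (0.00618). Leaving out any of the 6 libraries took the adjusted p above 0.01, to between 0.010 (without siC replicate 2, just above the threshold before rounding) and 0.0187 (without siMSI1 replicate 1), while the log2 fold change stayed between 1.29 and 1.43.
HHIP overlaps the antisense lncRNA HHIP-AS1, measured at 0.772 to 1.47 FPKM in siC and 0.915 to 2.25 FPKM in siMSI1, with overlapping groups (limma adjusted p = 0.347). The library preparation kept strand, but the strand setting of the counting is not given in the sources used here.

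HHIPL2 (ENSG00000143512, chr1:222522258-222548104, minus strand, 9 exons) was at 0.852, 0.891 and 0.951 FPKM in the siC libraries and at 4.50, 4.64 and 4.53 FPKM in siMSI1. The reads were 42, 53 and 45 in siC and 218, 200 and 214 in siMSI1. Within each group the libraries were close to each other, and the groups were widely separated. The log2 difference was 2.22, the 41st highest among the 15069 genes. No test is given, since this difference chose the group. In siC, 88.4% of the genes tested had a higher level than HHIPL2, so the gene started from a low level. No annotated gene overlaps HHIPL2. Its nearest neighbour on one side, TAF1A, a subunit of an RNA polymerase I initiation factor 9797 bases away, was at 3.49 FPKM in siC and 3.56 FPKM in siMSI1 (log2 fold change 0.02, 95% interval -0.37 to 0.41, limma adjusted p = 0.950). On the other side the pseudogene AL592148.2, 2525 bases away, had 0 reads.

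HHIPL1 (ENSG00000182218, chr14:99645129-99680569, plus strand, 9 exons) differed in the opposite direction, at 2.80, 2.41 and 2.68 FPKM in the siC libraries and 1.44, 1.75 and 1.74 FPKM in siMSI1. The groups did not overlap and the siMSI1 mean of 1.64 ± 0.179 FPKM was 62.5% of the siC mean of 2.63 ± 0.203 FPKM. The log2 fold change of -0.65 (SE 0.13, 95% interval -0.95 to -0.35) missed the threshold narrowly (limma adjusted p = 0.0107). It passed among genes with a mean of at least 1 FPKM (0.00884) and with limma voom (0.000565).
The HHIPL1 to HHIPL2 ratio was 3.29, 2.70 and 2.82 in siC and 0.320, 0.378 and 0.384 in siMSI1. This ratio was formed after the values were seen, holds the HHIPL2 level that chose the group, and carries no test.

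**Figure D1:**
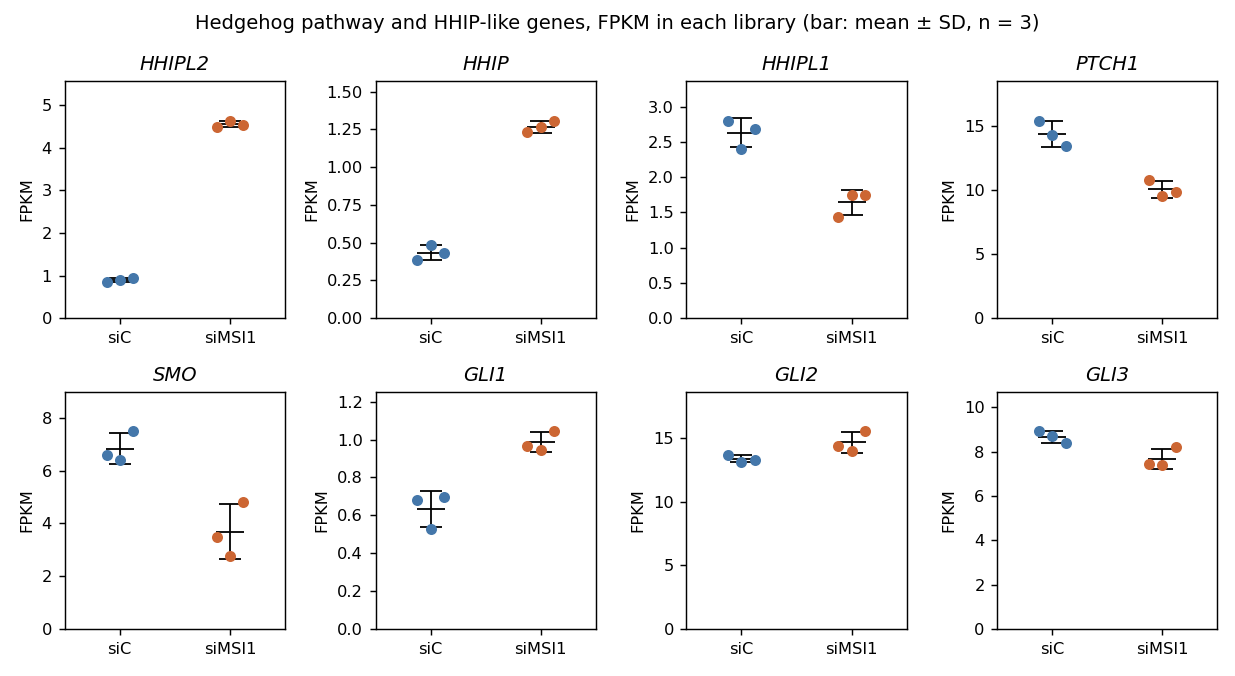
FPKM (y axis, linear, from 0, with its own range in each panel) of the 8 genes with reads in each library, as points for 3 siC and 3 siMSI1 libraries with bars at the mean ± SD. HHIPL2 goes from a mean of 0.898 to 4.56 FPKM, HHIP from 0.435 to 1.27 FPKM and PTCH1 from 14.4 to 10.0 FPKM, and in no panel do the groups overlap. Groups also did not overlap in 42.8% of all genes tested. HHIPL2 chose the group and HHIP passed the filter only through siMSI1, so nothing is drawn from this.

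Of the 9 genes, 8 passed the filter on low values, and without HHIPL2 7 were tested. Of these 7, 2 were called, HHIP higher and PTCH1 lower. Among all 15069 genes tested, 11.0% were called, 5.15% as higher and 5.83% as lower in siMSI1. In all 7 the siC and siMSI1 libraries did not overlap, against 42.8% of all genes tested. HHIP passed the filter only through siMSI1, so it had to differ, and nothing is drawn from this count. The median log2 fold change of the 7 was -0.17, against 0.00 over all genes. By limma, the number called was 0 without siC replicate 1, without siC replicate 2 or without siMSI1 replicate 2, and 1 without siC replicate 3 or without siMSI1 replicate 1. Over all genes, these fits called 517, 842, 885, 800 and 814 in that order, against 1655 with all libraries. At an unadjusted p under 0.05 the number among the 7 was 5 with all libraries, and 5, 4 and 4 in the fits that called none of them. The share of all genes at that unadjusted p was not counted. An adjusted p of 0.05 by limma was already passed by 3787 of the 15069 genes, so nothing is drawn from the unadjusted numbers. With limma voom on recovered reads, 4 of the 7 passed the adjusted threshold, beside 2855 of all genes.

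**Figure D2:**
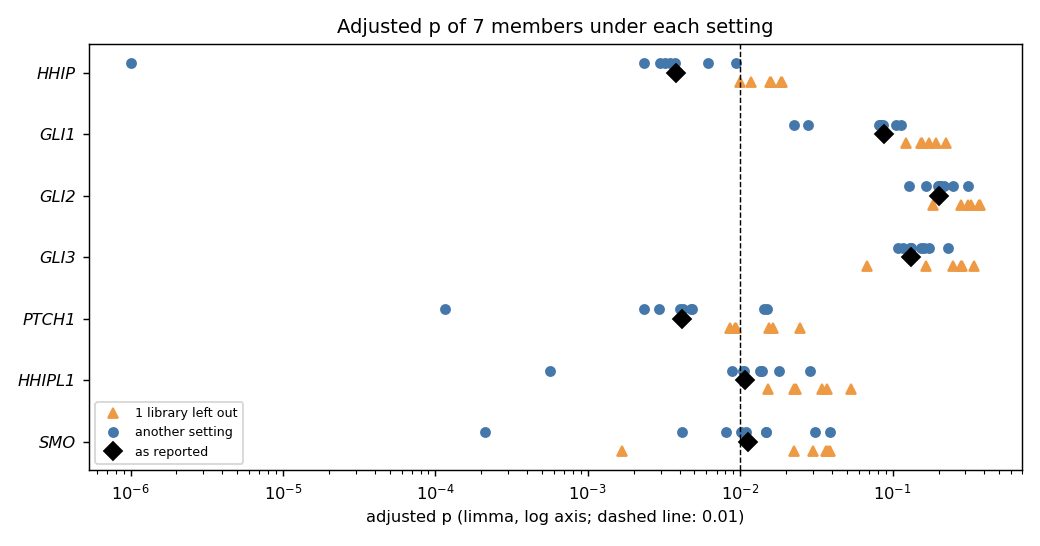
Adjusted p from limma (x axis, log scale, dashed line at 0.01) of the 7 tested genes other than HHIPL2, with a diamond for the analysis given, circles for other settings and triangles for fits without 1 library. PTCH1, HHIP, SMO and HHIPL1 have points on both sides of the line, while all points of GLI1, GLI2 and GLI3 lie above 0.01.

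The order of the levels, in FPKM by the deposited gene lengths, differed between the groups. That length was 16591 bases for PTCH1, against 8662 in its MANE transcript, and 7341 for GLI2, against 7136. The order of genes and the overlaps between them, as for PTCH1 and GLI2, may therefore depend on the length used. In siC it ran from PTCH1 through GLI2, GLI3, SMO, HHIPL1, HHIPL2, GLI1 and HHIP to SHH, and only PTCH1 and GLI2 overlapped in their ranges. In siMSI1 it ran from GLI2 through PTCH1, GLI3, HHIPL2, SMO, HHIPL1, HHIP and GLI1 to SHH, and only HHIPL2 and SMO overlapped. HHIPL2 thus moved from the sixth to the fourth place, GLI2 passed PTCH1 and HHIP passed GLI1.

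**Figure D3:**
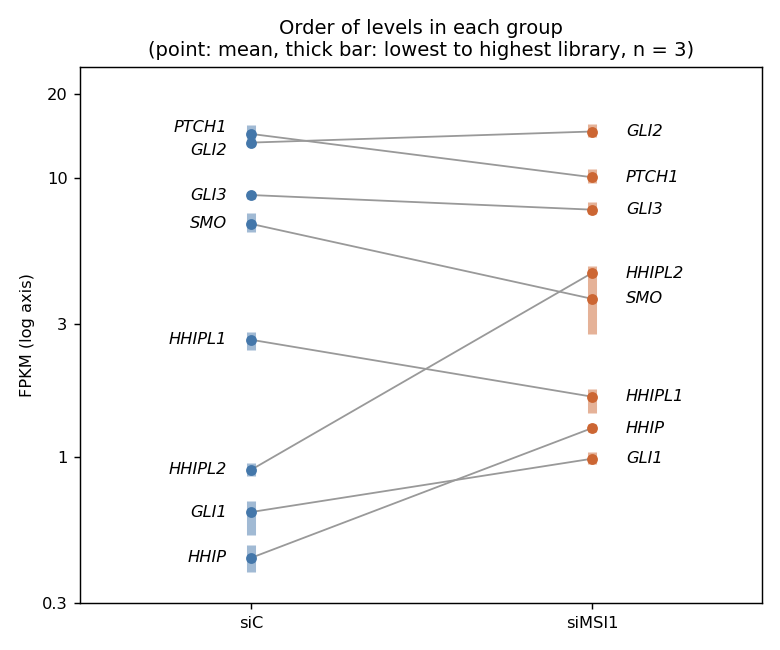
Mean FPKM (log axis) of the 8 genes with reads in siC and siMSI1, with thick bars from the lowest to the highest of 3 libraries and lines joining the same gene. By the deposited gene lengths, HHIPL2 crosses HHIPL1 and reaches the range of SMO, HHIP crosses GLI1, and GLI2 comes to lie above PTCH1.

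A further 84 genes of the pathway were listed by role, also with earlier results of these data known. All of them matched a gene in the table, and 65 passed the filter. Of these, 8 were called by limma, 7 lower and 1 higher in siMSI1, a share of 12.3% beside the 11.0% over all genes. Their median log2 fold change was -0.02. Leaving out siC replicate 1 reduced the count to 3, leaving out siC replicate 2, siC replicate 3 or siMSI1 replicate 1 to 4, and leaving out siMSI1 replicate 2 to 5. The count over all genes fell from 1655 to 517, 842, 800, 814 and 885 in the same fits.

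Of 5 tested genes for ligand acylation and release, none was called by limma, beside 11.0% over all genes. Groups did not overlap in 2 of 5, beside 42.8% of all genes tested. Only DISP1 had an unadjusted p under 0.05, and the share of all genes at that cutoff was not counted. DISP1 was at 1.16 FPKM in siC and 1.62 FPKM in siMSI1 (limma adjusted p = 0.0553). SCUBE2, which helps release the lipid-modified ligand, was at 5.77 FPKM in siC and 5.63 FPKM in siMSI1, and DISP2, a relative of the ligand exporter DISP1, at 1.73 and 1.82 FPKM. Of 5 tested receptor and co-receptor genes, only GPC4 was called, a share of 20% beside 11.0% over all genes. With so few genes, nothing is drawn from either count. GPC4, a cell surface glypican, fell from 43.3 ± 1.42 to 25.4 ± 1.5 FPKM (limma adjusted p = 0.000477). The ligand-binding co-receptor BOC was at 8.22 FPKM in siC and 10.4 FPKM in siMSI1 and missed the threshold (limma adjusted p = 0.0149).

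Of 23 tested cytosolic and ciliary transducers, 2 were called, a share of 8.70% beside 11.0% over all genes. CUL1, the scaffold of an SCF ubiquitin ligase, fell from 50.9 to 38.0 FPKM (log2 fold change -0.42, limma adjusted p = 0.00425). ARRB2, a beta-arrestin, fell from 12.8 to 9.46 FPKM (log2 fold change -0.43, limma adjusted p = 0.00708). PRKACA, a catalytic subunit of the protein kinase A that phosphorylates GLI proteins, was at 37.1 FPKM in siC and 40.0 FPKM in siMSI1 with limma adjusted p = 0.468. Among 22 tested genes of the primary cilium, the organelle that holds the pathway, 2 were called. This is a share of 9.09% beside 11.0% over all genes. KIF3B, a motor subunit of intraflagellar transport, fell by 0.71 on the log2 scale, from 36.4 to 22.2 FPKM (limma adjusted p = 0.000758). TULP3, an adaptor that brings membrane proteins into cilia, fell by 0.38, from 29.0 to 22.2 FPKM (limma adjusted p = 0.00857).

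Of 20 reported target genes, 10 were tested and 3 were called, in both directions. This is a share of 30% beside 11.0% over all genes, on few genes, and nothing is drawn from it. NKX2-2 and NKX6-1, homeobox factors of the ventral neural tube, fell from 1.58 to 0.818 FPKM (limma adjusted p = 0.00771) and from 13.6 to 9.66 FPKM (limma adjusted p = 0.00174). MYCN, a growth-promoting transcription factor, rose from 78.2 ± 2.33 to 120.3 ± 2.40 FPKM (log2 fold change 0.62, SE 0.06, limma adjusted p = 0.000554). The cell cycle factor FOXM1 was at 92.5 FPKM in siC and 77.0 FPKM in siMSI1 (limma adjusted p = 0.0631). The further target genes called thus lay on both sides of 0. Among the members, PTCH1 was called lower and HHIP higher, but HHIP was tested only through its siMSI1 level.

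**Figure D4:**
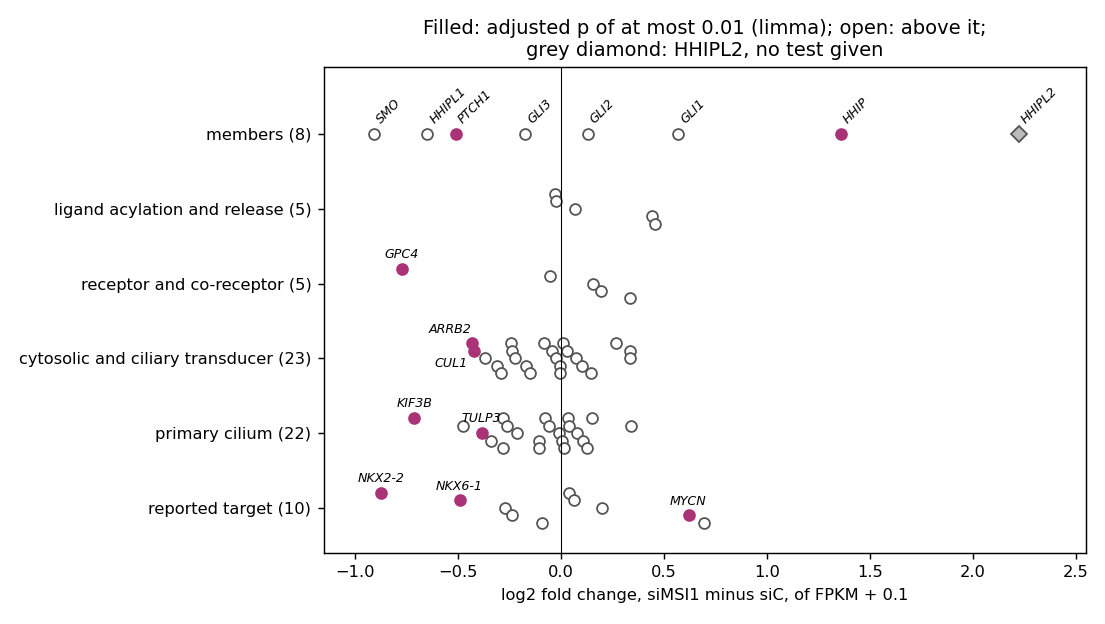
Log2 fold change of siMSI1 against siC (x axis, FPKM + 0.1) of 8 of the 9 genes and of the 65 tested further pathway genes by role, where filled points have an adjusted p of at most 0.01 and the grey diamond is HHIPL2, for which no test is given. The called further genes are GPC4, CUL1, ARRB2, KIF3B, TULP3, NKX2-2 and NKX6-1 below 0 and MYCN above 0.

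Antisense genes overlap several of these genes. At GLI2, the antisense lncRNA AC017033.1 rose from 1.03 to 2.32 FPKM (log2 fold change 1.12, SE 0.21, limma adjusted p = 0.00823), on 8 to 16 reads in siC and 20 to 25 reads in siMSI1, whereas GLI2 itself was not called. At PTCH1, the antisense lncRNAs AL161729.1 and AL161729.4 were not called (limma adjusted p = 0.349 and 0.599). Without a stated strand setting, reads of a gene and of its antisense partner may not be told apart.

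MSI1 binds RNA at UAG-containing motifs, often in 3′ untranslated regions, so the letters GUAG were counted in the 3′ untranslated region of the MANE transcript of each gene. HHIPL2 had 1 GUAG in 337 bases and HHIP 18 in 7314 bases, a region longer than that of 96.8% of the 10886 tested genes with such a transcript. Per kilobase these are 2.97 and 2.46, against a median of 2.38 over those genes. PTCH1 held 12 in 3413 bases (3.52 per kilobase), SMO 2 in 1094 bases (1.83 per kilobase) and HHIPL1 6 in 4943 bases (1.21 per kilobase). The highest densities were those of GLI1, with 1 in 207 bases (4.83 per kilobase), and GLI2, with 9 in 1978 bases (4.55 per kilobase), neither of which was called. GLI3 held 10 in 3381 bases (2.96 per kilobase) and SHH, which had no reads, 6 in 2920 bases (2.05 per kilobase). A match of these letters is not a binding site.

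The 5 tested genes outside the list whose pattern over the 6 libraries was most like that of HHIPL2, by Pearson's r of log2(FPKM + 0.1), were BPNT1 (0.999), SLC47A2 (0.999), HMOX1 (0.999), GFPT2 (0.998) and SMAD6 (0.998). This is a description over 6 libraries in 2 groups, in which any gene that separates the groups cleanly scores high, and it carries no p. GFPT2, an enzyme of the hexosamine pathway, was at 8.90 FPKM in siC and 23.9 FPKM in siMSI1, and SLC47A2, an organic cation exporter, at 1.78 and 4.61 FPKM. The heme oxygenase HMOX1 was at 8.69 and 14.3 FPKM and the inhibitory SMAD gene SMAD6 at 5.22 and 9.27 FPKM. Within the list, r with HHIPL2 was 0.994 for HHIP, 0.925 for GLI1 and 0.798 for GLI2. It was -0.966 for PTCH1, -0.947 for HHIPL1, -0.885 for SMO and -0.861 for GLI3.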

How the data were processed

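Gene-level FPKM of 6 KNS42 mRNA-seq libraries were used as deposited. Per the study's methods and processing notes, the authors trimmed reads with Cutadapt 1.14, aligned them to GRCh38 with HISAT2 2.1.0, processed alignments with SAMtools 1.5, counted them per gene with featureCounts 1.5.3 and an Ensembl annotation, and used edgeR 3.18.1. The deposited fold changes, p-values and FDR are the authors' own comparison and were not used. The deposited gene length gave back whole reads from FPKM for 100% of values (tolerance 0.01). Depth is given in the report.

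Genes with a mean of at least 0.5 FPKM were tested with limma 3.58.1 (R 4.3.3) on log2(FPKM + 0.1), with trend and robust moderation and no covariate. Benjamini-Hochberg adjustment ran over all tested genes, with the study's threshold of 0.01. Positions, exons and 3′ regions are from GENCODE on GRCh38, and promoters from RefSeq. The members and lists were chosen with earlier results of these data known. Named genes are the 9 members, further pathway genes past the threshold, the 1 or 2 most abundant of each role, the 5 most like HHIPL2, its neighbours, and MSI1. Antisense genes were added after their values were seen. The fit was tested on simulated data. Figures were drawn with matplotlib 3.10.9.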

Additional observations from a re-analysis of the deposited data

How the results depend on the processing

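No value of the 7 tested genes other than HHIPL2 changed direction in 103 alternative values, of which 86 stayed on the same side of the threshold, 11 lost it and 6 gained it. The numbers called, given for all genes, these 7 genes and the further pathway genes in that order, were 792, 1 and 4 with no filter on low genes, 847, 1 and 5 with plain moderation, and 3787, 4 and 15 at an adjusted p of 0.05. With limma voom on recovered reads they were 2855 for all genes and 4 for the 7 genes. Leaving out 1 library gave 517 to 1603, 0 to 2 and 3 to 6. The unfiltered fit tests 29846 genes and the fits without a library hold 5 libraries, and the cause of the other shifts was not tested. The HHIPL2 log2 difference was 1.55 with 1 FPKM added, 2.33 with 0.01 added and 2.33 with voom, since a larger added value shrinks a low level, and 2.19 to 2.26 without 1 library. Same-numbered libraries correlated at -0.07, 0.08 and 0.08 in their deviations from the group means, so the numbers were not taken as pairs, and not every library correlated best with its own number. A replicate block gave 2250 genes, 3 of the 7 (SMO passing at adjusted p = 0.00412) and 8 further pathway genes. HHIP at a mean of at least 1 FPKM could not be tested. GLI1 was also below that filter. Depth limits SHH, GLI1, HHIPL2 and HHIP most, which rest on at most 227 reads per library.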
